A study of Homo sapiens with 3 samples.

Results

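The kallikrein-related peptidases are secreted serine proteases whose genes stand side by side on the long arm of chromosome 19. KLK5 to KLK14 were the genes chosen, by name, from the tissue kallikreins of this cluster. Of these 10 genes, 9 were measured among 29689 gene symbols, and KLK9 was not analysed here. The data hold 3 RNAseq libraries from xenograft tumors of SUM-149, an established triple-negative breast cancer cell line mixed with Matrigel and grown in the mammary fat pads of female Nu/Nu (nude, T cell-deficient) mice. There was 1 library for vehicle, 1 for CDK2i and 1 for EZH2i, with no replicate, so no p-value was computed. The labels give the CDK2i as dinaciclib and the EZH2i as EPZ6438, each for 10 days, while the study's text names GSK343 for the EZH2i arm of its SUM-149 xenografts, and which compound the EZH2i library stands for is taken from the label. The labels name no engineered allele. Host cells of the mouse remain in such tumors, and how their reads were handled is not given in the sources used here.

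Tissue kallikreins are made as inactive precursors and switched on by removal of a short leading peptide, often by another kallikrein. In the outer epidermis KLK5, KLK7 and KLK14 form such a cascade and cut the desmosome proteins that hold cornified cells together, under the control of LEKTI, the inhibitor encoded by SPINK5. Several members also cut protease-activated receptors, and many respond to steroid hormones. Basal-like breast tumor cells share keratins and other proteins with squamous epithelium.

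The 10 genes lie on the minus strand of chromosome 19 within 140.9 kb of GRCh37, from KLK5 (chromosome 19, 51446559 to 51456349) to KLK14 (51580752 to 51587502). To show the sequence next to the genes on which the results turn, the 100 bases just before the first listed RefSeq start of 5 of them are given 5′ to 3′, with the letters TATAA on either strand in capitals.
KLK5: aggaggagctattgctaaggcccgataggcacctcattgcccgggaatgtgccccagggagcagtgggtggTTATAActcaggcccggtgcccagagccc
KLK7: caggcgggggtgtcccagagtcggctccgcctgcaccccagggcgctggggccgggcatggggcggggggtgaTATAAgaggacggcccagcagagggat
KLK10: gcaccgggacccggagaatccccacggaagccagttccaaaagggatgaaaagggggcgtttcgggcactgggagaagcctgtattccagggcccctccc
KLK11: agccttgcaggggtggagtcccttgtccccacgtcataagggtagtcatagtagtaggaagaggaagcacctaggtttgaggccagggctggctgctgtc
KLK14: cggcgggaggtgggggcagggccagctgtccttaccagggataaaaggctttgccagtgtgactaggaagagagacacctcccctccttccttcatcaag
These stretches matched GRCh37 exactly, at chr19:51456295-51456394 for KLK5, chr19:51487174-51487273 for KLK7, chr19:51523118-51523217 for KLK10, chr19:51530903-51531002 for KLK11 and chr19:51586114-51586213 for KLK14. The sequences come from RefSeq (table on GRCh38.p14), in which 9 of the 10 genes were found and KLK8 was not. KLK7 and KLK14 have 3 listed starts and KLK10 and KLK11 have 2, so another start may be the one used in these tumors. In KLK5 and KLK7 the TATAA letters began 29 and 27 bases before the start. In KLK5 the 2 strands overlap, which gives the capitals TTATAA.

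Over the whole window of 300 bases, 250 before and 50 after the start, TATAA on either strand was present in 3 of the 9 kallikrein promoters (KLK5, KLK7 and KLK14), against 21.1% of 27305 human promoters. The GC box GGGCGG was present in 5 of 9 (KLK6, KLK7, KLK9, KLK13 and KLK14), against 44.6% of all. TGANTCA, the letters bound by AP-1 factors, was in none of the 9, against 7.76% of all promoters. Motifs were searched on both strands. The kallikrein windows held fewer CpG pairs, with a median ratio of observed to expected CpG of 0.308 against 0.58 over all promoters, at a median GC content of 61.7% against 58.3%. KLK11 had 3 CpG pairs and KLK7 had 16, the ends of the range.

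In the vehicle tumor the cluster was expressed at a low level and led by KLK14. Levels are given as FPKM (fragments per kilobase of gene and per library size), the unit in which the authors deposited the values after taking log2. The 9 genes summed to 38.9 FPKM in vehicle, of which KLK14 made up 40.7%. Behind KLK14 at 15.8 FPKM, KLK11, KLK10 and KLK7 stood at 5.95, 5.48 and 5.28 FPKM. These 3 levels could not be told apart by their counting error, the exact 95% Poisson interval of the estimated fragments. KLK5 and KLK6 followed at 2.71 and 1.92 FPKM, and KLK8, KLK12 and KLK13 were below 1 FPKM. Intervals of neighbors in this order overlapped for KLK5 and KLK6, for KLK8 and KLK12, and for KLK12 and KLK13.

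In the CDK2i tumor the same 9 genes summed to 185 FPKM, 4.75 times the vehicle sum, and in the EZH2i tumor to 37.5 FPKM, 0.963 times. They took 0.00813% of the summed FPKM of all genes in vehicle, 0.0428% in CDK2i and 0.00925% in EZH2i. Without KLK14 the sums were 23.1, 82.3 and 25.1 FPKM, so the higher CDK2i sum did not rest on that gene alone. All 9 genes had their highest value in the CDK2i tumor, although the lead of KLK8 over vehicle and that of KLK13 over EZH2i were within counting error. KLK14 was the highest of the cluster in each tumor, and KLK10 was the second in both treated tumors.

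**Figure D1:**
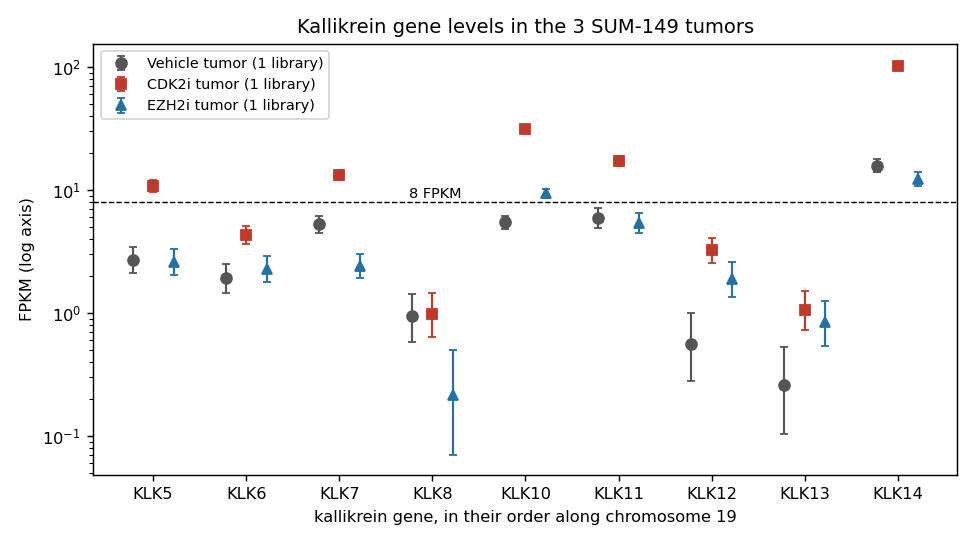
Level of each kallikrein gene in FPKM (log axis) in the 3 tumors, 1 library each, in gene order along chromosome 19; bars are exact 95% Poisson intervals of the estimated fragments and cover counting error only, and the dashed line marks 8 FPKM. The CDK2i squares stand above the other symbols, with bars that overlap those of vehicle for KLK8 and those of EZH2i for KLK12 and KLK13, and KLK14 reached 102 FPKM there.

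KLK5, KLK7 and KLK14, the proteases of the epidermal cascade, were all higher in the CDK2i tumor. KLK14, a trypsin-like enzyme that can activate other kallikreins, stood at 15.8 FPKM in vehicle against 102 in CDK2i and 12.3 in EZH2i. The CDK2i tumor stood apart from both others, at 6.48 times the vehicle value. This is a log2 change of 2.70, with a counting interval of 2.51 to 2.88. KLK5, a trypsin-like enzyme that activates the precursors of KLK7 and KLK14, was at 2.71, 10.9 and 2.63 FPKM. Its log2 change was 2.01 in CDK2i (counting interval 1.63 to 2.40), with the vehicle and EZH2i values inside each other's error. KLK7 (chromosome 19, 51479724 to 51487355), a chymotrypsin-like enzyme that cuts corneodesmosin, was at 5.28, 13.3 and 2.43 FPKM. The CDK2i value was 2.51 times the vehicle value, and in the EZH2i tumor KLK7 was lower than in vehicle. Its log2 changes were 1.33 in CDK2i (1.08 to 1.59) and −1.12 in EZH2i (−1.52 to −0.74).

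KLK10 and KLK11 were also higher in CDK2i. KLK10 (chromosome 19, 51515995 to 51523431) is known as NES1, a gene found silenced in many breast cancer cell lines. Its level was 5.48 FPKM in vehicle against 31.3 in CDK2i and 9.41 in EZH2i. Both treated tumors were above vehicle, by log2 changes of 2.51 in CDK2i (2.33 to 2.70) and 0.78 in EZH2i (0.57 to 1.00). KLK11 (chromosome 19, 51525472 to 51531295), a trypsin-like enzyme, was at 5.95, 17.3 and 5.40 FPKM. Its log2 change of 1.54 in CDK2i (1.24 to 1.85) contrasted with −0.14 in EZH2i, where the interval of −0.53 to 0.25 included 0.

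KLK6, KLK12 and KLK13 were higher in CDK2i as well, from few fragments. KLK6 (chromosome 19, 51461887 to 51472929), a trypsin-like enzyme known from the nervous system and from ovarian and breast tumors, was at 1.92, 4.31 and 2.31 FPKM, about 55, 141 and 69 fragments. The log2 change was 1.17 in CDK2i (0.71 to 1.65) and 0.27 in EZH2i, with an interval that included 0. KLK12 (chromosome 19, 51532348 to 51538486) was at 0.560, 3.26 and 1.90 FPKM, and the whole numbers of fragments that fit these values were 11, 73 and 39. KLK12 was thus higher in both treated tumors, by 2.54 in CDK2i (1.62 to 3.61) and 1.76 in EZH2i (0.77 to 2.88) on the log2 scale. KLK13 (chromosome 19, 51558883 to 51568371) was at 0.258, 1.07 and 0.849 FPKM, or 7, 33 and 24 fragments. Its changes of 2.05 and 1.71 had wide counting intervals, 0.85 to 3.47 in CDK2i and 0.46 to 3.17 in EZH2i.

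KLK8 was the exception in the CDK2i tumor. KLK8 (chromosome 19, 51499263 to 51505967) encodes neuropsin, a trypsin-like enzyme of the epidermis and the hippocampus. Its level was 0.945 FPKM in vehicle against 0.986 in CDK2i and 0.216 in EZH2i, from about 21, 25 and 5 fragments. The CDK2i change of 0.06 on the log2 scale had a counting interval of −0.83 to 0.97, and the EZH2i change was −2.13 (−3.90 to −0.69). In the annotation 40.1% of its exon length is shared with an unnamed protein-coding gene and 10.9% with KLK9 on the same strand, so fragments could have been split between them.

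**Figure D2:**
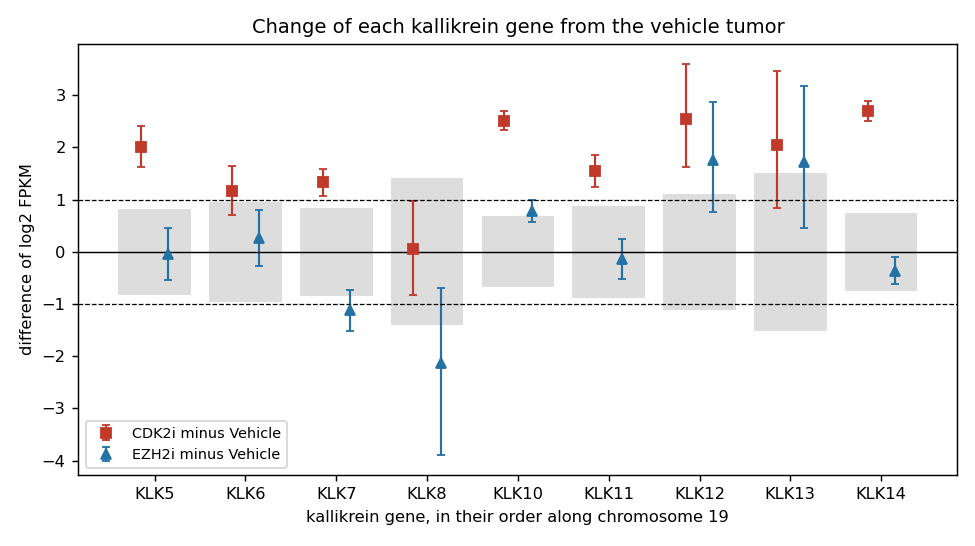
Difference of log2 FPKM from the vehicle tumor for each kallikrein gene; bars are exact 95% binomial intervals that cover counting error only, grey boxes the spread of 200 genes of like level, and dashed lines a 2-fold change. In CDK2i 8 of 9 genes lie above the upper dashed line, while the EZH2i changes run from −2.13 for KLK8 to 1.76 for KLK12.

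The CDK2i comparison set the dinaciclib tumor against the vehicle tumor. The study names CDK1, CDK2, CDK5 and CDK9 among the kinases that dinaciclib inhibits, and their parts cannot be told apart here. With the study's thresholds, a fold above 2 and at least 1 of the compared tumors above log2 FPKM 3 (8 FPKM), 5 of the 9 genes were called higher in CDK2i and none lower, where 3.27% of the 6632 genes that could have passed were called higher and 8.07% lower. These were KLK5, KLK7, KLK10, KLK11 and KLK14. No other gene of the 9 could have passed, and KLK5, KLK7, KLK10 and KLK11 reached the expression minimum only through the CDK2i tumor itself. Without that minimum, 8 of the 9 were more than 2-fold higher and none lower, against 4.7% higher and 17.3% lower of 12393 genes with a mean level in the same range, from −0.77 to 4.76 log2 FPKM. With a pseudocount of 1 FPKM 6 of the 9 remained above 2-fold, without KLK6 and KLK13. The median change of the 9 genes was 2.01, and that of 11109 expressed genes was −0.11. For 8 of the 9 the change was larger than the spread of genes of like level, taken as the SD of the difference between the treated tumors over the 200 nearest genes, against 21.2% of the genes of like level in either direction. The same count was 5 of 9 in EZH2i against vehicle (background 21%) and 6 of 9 between the treated tumors (background 37.9%). The spread ran from 0.68 for KLK10 to 1.52 for KLK13 and stands in for a replicate error that 1 library per group cannot give. It holds drug effects as well as noise, so it is a description only. Between the treated tumors it is made of the same kind of difference that it is set against. In these bulk tumors, more kallikrein-expressing cells and more kallikrein RNA per cell cannot be told apart.

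In the EZH2i tumor none of the 9 genes passed both thresholds, where 8.93% of 7414 genes were called higher and 4.42% lower. Only KLK10 and KLK14 were above 8 FPKM in the EZH2i or the vehicle tumor and could have passed. By fold alone, KLK12 and KLK13 were more than 2-fold higher and KLK7 and KLK8 more than 2-fold lower. This is 2 of 9 in each direction, against 14.4% of genes of like level higher and 5.93% lower. With a pseudocount of 1 FPKM all 4 changes fell under 2-fold, to 0.90 for KLK12, 0.55 for KLK13, −0.87 for KLK7 and −0.68 for KLK8. The median change of the 9 genes was −0.04, and that of all expressed genes was 0.19. The 2 comparisons share the vehicle library.

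**Figure D3:**
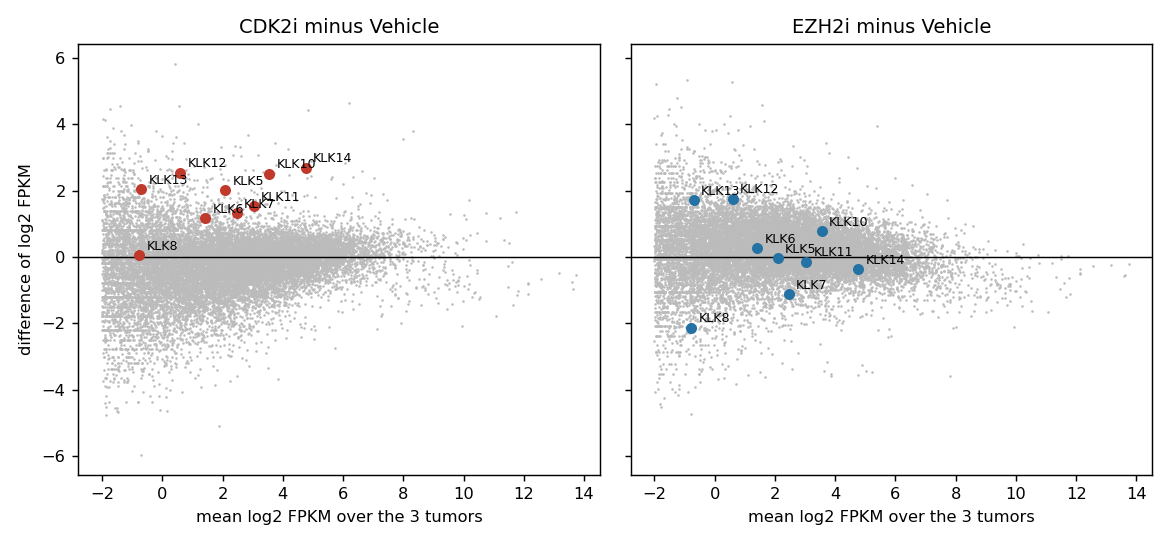
Difference of log2 FPKM from vehicle (vertical axis) against the mean log2 FPKM over the 3 tumors (horizontal axis) for genes with a mean above −2 and no value at the floor; grey points are all such genes and large points the 9 kallikrein genes. In CDK2i 8 of the 9 lie above a difference of 1, and in EZH2i the 9 lie on both sides of 0.

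The treated tumors were also set against each other directly, a comparison that uses the same CDK2i library as the first. KLK5, KLK7, KLK10, KLK11 and KLK14 were called lower in EZH2i than in CDK2i, where 6.53% of the 7394 genes that could have passed were called lower and 17.5% higher. These 5 were the only kallikreins that could have passed, KLK5, KLK7 and KLK11 only through the CDK2i tumor, in which they were high. By fold alone 6 of 9 were more than 2-fold lower and none higher, against 6.53% lower and 30.6% higher of the genes of like level. The difference was widest for KLK14, at −3.05 on the log2 scale (−3.26 to −2.86), or 8.31 times lower. KLK7 was 5.46 times lower and KLK5 4.15 times lower. KLK8 was 4.58 times lower from 5 fragments in EZH2i. For KLK13 the difference of −0.33 had an interval that included 0 (−1.15 to 0.47). All 9 differences were below 0, with a median of −1.73 against 0.35 over all expressed genes.

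The direction of the CDK2i change held for 8 genes under each of 6 other scalings and corrections. Of these, only removing the GC and length trend could have changed it. The scalings shift all genes in CDK2i alike, by −0.145 to 0.149, and a pseudocount cannot change a sign. KLK14 ran from 2.55 to 2.84 and KLK7 from 1.18 to 1.49, while KLK13, the lowest gene in vehicle, fell to 0.72 with a pseudocount of 1 FPKM. KLK8 ran from −0.08 to 0.21 and had no stable sign. In EZH2i the signs of KLK5, KLK11 and KLK14 flipped, with KLK14 running from −0.55 to 0.46. The positive end came from removing the trend of the change with GC content and transcript length.

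**Figure D4:**
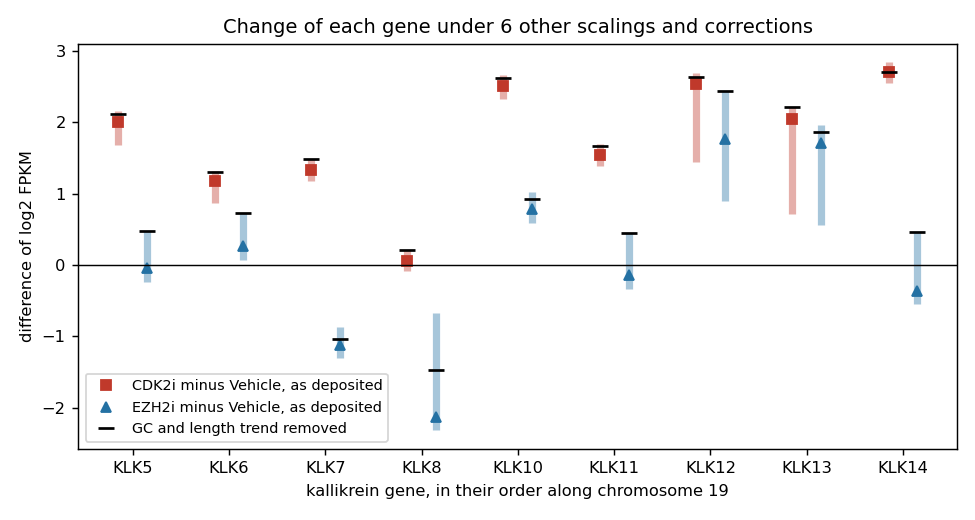
Difference of log2 FPKM from vehicle for each kallikrein gene as deposited (squares for CDK2i, triangles for EZH2i), its range under 6 other scalings and corrections (shaded bars) and its value with the GC and length trend removed (black dashes). The CDK2i bars stay above 0 except for KLK8, and the EZH2i bars of KLK5, KLK11 and KLK14 cross 0.

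Other tissue kallikreins were at or near 0. KLK1 stood at 0.0643 FPKM in vehicle against 0.169 in CDK2i and 0.123 in EZH2i. KLK2 was listed at 0 in each tumor, KLK3 (prostate-specific antigen) in vehicle and EZH2i, and the pseudogene KLKP1 in vehicle. KLK4 and KLK15 were not analysed here. Few genes next to the cluster were expressed. Of 10 measured genes flanking it, C19orf48, on the KLK1 side, was called lower in CDK2i, at 43.7, 8.21 and 39.9 FPKM, and CTU1, next to KLK14, was at 8.99, 5.41 and 7.82 FPKM. The 8 others stayed below the expression minimum.

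Of 12 measured genes for kallikrein inhibitors, 10 could have passed the thresholds in CDK2i, where 1 was called higher and none lower, against 3.27% and 8.07% of all genes. In EZH2i 9 could have passed, with 1 called higher and 3 lower, against 8.93% and 4.42%. SPINK5, which encodes LEKTI, stood at 187 FPKM in vehicle against 148 in CDK2i and 58.4 in EZH2i. SPINK6, a selective kallikrein inhibitor and the most expressed gene of the list in vehicle, was at 513, 270.03 and 286 FPKM. It was below vehicle in both treated tumors without passing the fold threshold. SLPI, which encodes the secretory leukocyte protease inhibitor, was at 317, 484 and 153 FPKM, called lower in EZH2i. SERPINA3 was also called lower there, by −1.32 on the log2 scale. A2ML1, a broad protease inhibitor of the epidermis, was called higher in both, by 1.88 in CDK2i and 1.08 in EZH2i. Summed, the inhibitors stood at 1356, 1342 and 749 FPKM, and the 9 kallikreins at 38.9, 185 and 37.5.

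Among 8 activating proteases, 4 could have passed in each comparison with vehicle. Only PLAU (urokinase) passed, higher in both treated tumors, against 3.27% of all genes higher in CDK2i and 8.93% in EZH2i. PLAU was at 19.001 FPKM in vehicle against 45.04 in CDK2i and 80.1 in EZH2i. ST14 (matriptase), the most expressed of these proteases in vehicle and CDK2i, was at 82.5, 106 and 66.2 FPKM and did not pass. Of 11 substrates and receptors, 4 could have passed in CDK2i and 5 in EZH2i. Of these, 2 were called higher in CDK2i and 4 in EZH2i, with none lower, against 3.27% and 8.93% of all genes higher. The called genes were all below log2 FPKM 3 in vehicle and reached that minimum only through a treated tumor. APP was the only gene of the list above it in vehicle, so no other could have been called lower. DSG1 and DSC1, the desmosomal cadherins cut in the epidermis, were higher in both, DSG1 by 1.99 and 1.45 and DSC1 by 2.27 and 2.15. IL1B and F2RL1 (the receptor PAR2) were called higher in EZH2i, by 3.13 and 1.03. In CDK2i their changes were 0.88 and −0.68. CDSN, the corneodesmosin gene, was at 0.140, 0.143 and 0.112 FPKM. APP, the most expressed of the list, was at 184, 328 and 213 FPKM. Of 5 nuclear hormone receptors (ESR1, PGR, NR3C1, NR3C2 and VDR), 1 could have passed in CDK2i (VDR) and 2 in EZH2i (VDR and NR3C1). None passed in either comparison with vehicle, against 3.27% of all genes higher and 8.07% lower in CDK2i. In EZH2i these shares were 8.93% and 4.42%. VDR was the highest of the 5 receptors, at 9.77, 5.35 and 13.9 FPKM.

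**Figure D5:**
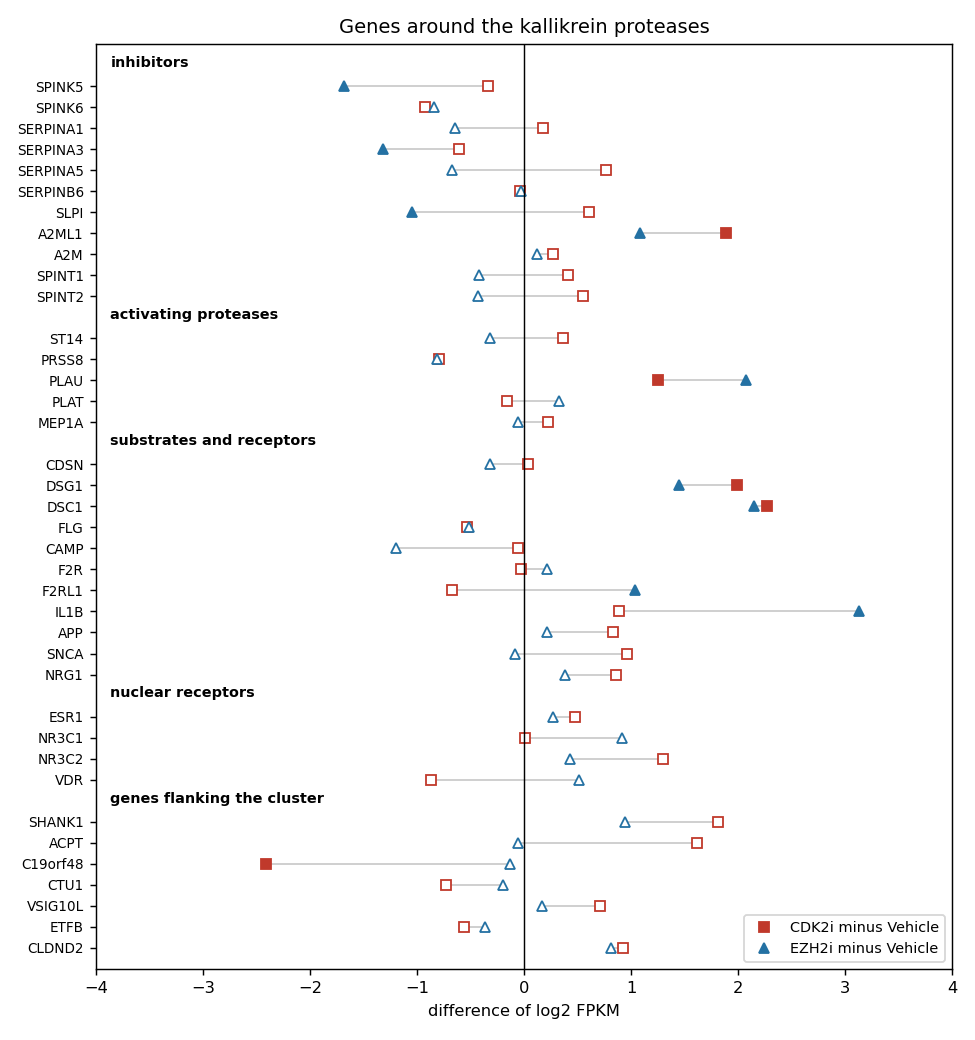
Difference of log2 FPKM from vehicle in CDK2i (squares) and EZH2i (triangles) for genes of 5 lists around the kallikreins with no value at the floor; filled symbols passed the fold and expression thresholds. A2ML1, PLAU, DSG1 and DSC1 are filled to the right in both tumors, and SPINK5, SERPINA3 and SLPI are filled to the left in EZH2i.

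Basal keratins were higher in the CDK2i tumor as well. Of 9 epithelial marker genes, all of which could have passed, 4 were called higher in CDK2i, against 3.27% of all genes. These were KRT5, KRT6A, KRT14 and KRT17, with log2 changes between 1.17 and 1.35, against a median of 2.01 for the kallikreins. The summed level of the 9 markers was 7629 FPKM in vehicle against 16326 in CDK2i and 6697 in EZH2i. EPCAM and CDH1, carried by epithelial cells in general, changed by 0.16 and 0.46 in CDK2i. KRT19, a luminal keratin, was at 1144 FPKM in vehicle against 883 in CDK2i and 485 in EZH2i, and was called lower in EZH2i, by −1.24 on the log2 scale. The luminal keratins did not move alike. KRT8 and KRT18 changed by 0.24 and 0.51 in CDK2i and by −0.49 and 0.25 in EZH2i, without passing. The part of the keratin-expressing cells in the kallikrein change was not tested. Summed markers of other cell types in vehicle, CDK2i and EZH2i were 8.28, 8.15 and 3.59 FPKM for 6 macrophage genes. Nearly all of this came from CD14, which was called lower in EZH2i. PTPRC, CD68 and CD163 were listed at 0 in EZH2i, while CSF1R and LYZ were above vehicle there, at 0.215 and 0.224 FPKM. For 7 fibroblast genes the sums were 24.5, 38.4 and 28.9 FPKM, mostly from COL1A1. In CDK2i 4 of the 7 were above vehicle, against 41.9% of 11109 expressed genes. Among these 4, COL1A2 and PDGFRA were below 1 FPKM in each tumor. Of the 2 fibroblast genes that could have passed in CDK2i, LUM was called higher, against 3.27% of all genes. COL3A1 and DCN changed by −1.44 and −0.70 there without passing. The sums were 0.833, 0.730 and 0.466 FPKM for 3 endothelial genes. For 3 adipocyte genes they were 33.2, 19.3 and 3.50 FPKM, nearly all from FABP4, which was called lower in EZH2i, and ADIPOQ was listed at 0 in vehicle and EZH2i. Such cells in a xenograft are host cells of the mouse, while these values are for human gene symbols aligned to hg19. Whether the values come from tumor cells or from mouse reads was not tested. Their part in the kallikrein values was not tested either.

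Among 7572 genes with a highest value above log2 FPKM 3, the genes whose pattern over the 3 libraries lay nearest to each called kallikrein were listed by distance on the log2 scale after subtracting each gene's mean. Nearest to KLK14 were JUN (an AP-1 subunit, distance 0.197), RNA28S5 (0.231) and HES1 (0.281). Nearest to KLK10 were CSRNP1, SCARNA2 and CXCL14, at 0.213 to 0.224. For KLK5 they were SGK1, EGR2 and TMEM88 (0.116 to 0.183), and for KLK7 PGLYRP3, FBLN5 and SLC12A7 (0.123 to 0.180). For KLK11 they were SULT2B1, KRT16 and AC004152.5 (0.0683 to 0.178). Within a distance of 0.5, KLK14 had 8 other genes and KLK11 had 82. Likeness over 3 libraries rests on 2 differences only.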

How the data were processed

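Total RNA of 3 xenograft tumors was sequenced on Illumina libraries. Per the labels, CASAVA and STAR were used with hg19 (GRCh37), without versions; the counting tool is not given in the sources used here. The authors deposited log2 FPKM for 29689 symbols, with −9 in place of log2 of 0 (5624 to 5853 genes per library). Differences were taken without a pseudocount. Depth was recovered from the 1-fragment step of low values: 16.8 M fragments in vehicle, 19.1 M in CDK2i and 17.5 M in EZH2i (M, 1000000). For 4 genes (KLK6, KLK8, KLK12, KLK13) exactly 1 set of whole numbers, with an implied gene length of 0.5 to 1 times the GENCODE 44 exon length, fitted the 3 values within 0.0013 on the log2 scale. For the other 5, fragments came from the annotated transcript length and are approximate. Exact Poisson and Clopper-Pearson intervals (95%) cover counting error only.

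Thresholds were the study's, without its limma p-value. The kallikrein genes, lists and alternatives were chosen with earlier results of these data known. Values are given for listed genes that passed a threshold or were highest in their list, and for each called kallikrein the 3 genes of nearest pattern. Some listed genes that meet neither condition are also given, such as CDSN, CTU1, EPCAM, CDH1, KRT8, KRT18, COL3A1 and DCN. KLK5, KLK6, KLK10 and KLK12 share exon bases with an opposite-strand noncoding gene; whether counting used strand is not given. One gene of the nuclear hormone receptor list is not reported here. The fold call and the depth estimate were tested on simulated data, and the other steps were not. Python 3.11.15, numpy 2.4.6, pandas 2.3.3, scipy 1.17.1 and matplotlib 3.10.9 were used.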

Additional observations from a re-analysis of the deposited data

How the results depend on the processing

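With 1 library per group, no replicate could be left out. No paired analysis was possible because each group holds a single library. The 5 calls in CDK2i became 3 with a fold above 3, 8 without an expression minimum and 1 with a minimum of log2 FPKM 5, where KLK14 alone remained. The direct comparison of EZH2i with CDK2i also gave 1 call at that minimum in place of 5. In EZH2i against vehicle the count of 0 became 1 with equal summed FPKM (KLK10, higher), 1 with a fold above 1.5, 1 with a minimum of log2 FPKM 1 (KLK7, lower) and 4 without a minimum, 2 in each direction. The median change in CDK2i was 1.40 with a pseudocount of 1 FPKM, against 2.01, and that in EZH2i was 0.48 with the GC and length trend removed, against −0.04. The other 39 values of these counts and medians stayed within 1.5 times the count or within the counting error. Centring on the median gene shifts CDK2i by 0.11 and EZH2i by −0.19, and equal summed FPKM by 0.15 and 0.24. Genes below about 1 FPKM rest on 5 to 33 fragments, where an interval can span more than 2 log2 units.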

Other observations

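NR3C1, the glucocorticoid receptor gene, was picked out after its values were seen. Its level was 4.31 FPKM in vehicle against 4.32 in CDK2i and 8.10 in EZH2i. ACPT, a gene of the flanking list that was also chosen after its values were seen, was at 0.0885, 0.272 and 0.0847 FPKM. At these low levels its CDK2i change of 1.62 on the log2 scale was within the spread of genes of like level, 1.65.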
